A study of Mus musculus with 10 samples.

Results

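The genes described here are 44 targets and partners of the transcription factor MYC and factors of ribosome biogenesis, 4 from the MYC network, 32 that make or assemble ribosomes and 8 other MYC targets. They were taken by gene symbol from the 53379 genes of the count table. All 44 were found, and all 44 passed the filter on low counts, which kept 14337 genes. MYC pairs with MAX, binds the E-box sequence CACGTG and related sites in promoters, and drives genes of cell growth. Prominent among its targets are the factors that make ribosomes: RNA polymerase I transcribes the ribosomal RNA precursor in the nucleolus, small nucleolar ribonucleoproteins modify it, and processing factors cut and fold it into the small and large subunits. In colon carcinoma, where WNT signalling commonly raises MYC, high ribosome production is a familiar feature of growing tumor cells.

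RNA was sequenced from MC38 cells, an established mouse colon carcinoma line, that had grown as tumors in C57BL/6J mice for 21 days. The tumors of 5 mice on a high-fat diet and 5 mice on a control diet gave 1 library each. Cells were sorted for the dTomato fluorescent marker and against CD45, the common leukocyte surface protein, so both diets share the line, the marker, the host strain and the gate. The sources used here do not state diet composition, time on diet, age or sex of the mice, or the promoter driving dTomato, and all 10 tumors come from a single line. The design holds 1 comparison, of the diets, and changes are high-fat minus control on the log2 scale. Levels are CPM, counts scaled to the size of each library, here with TMM, a factor that also corrects for library composition.

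High-fat libraries held between 16513388 and 17154050 counts and control libraries between 17050797 and 18653705, and their means differed (exact two-sided permutation p = 0.0317). Over all genes, quasi-likelihood testing in edgeR called 9, or 0.0628% of those tested, at a Benjamini-Hochberg adjusted p under 0.05. Epithelial markers were nearly absent, although MC38 is a carcinoma line. Krt8, Krt18, Krt19 and Epcam each had under 100 counts over all 10 libraries and Cdh1 had 271. The 7 fibroblast genes ranged widely, Col3a1 averaging 7798 ± 1917 CPM, Dcn 1002 ± 214 CPM, Lum 14.2 ± 11.9 CPM and Fap 1.48 ± 0.886 CPM (SD, n = 10). The summed level of 12 macrophage genes ran from 38.3 to 78.3 CPM in high-fat mice and from 68.1 to 499 CPM in control mice, with control mice 3 and 4 highest. None of the 12 was at 0 over all libraries, and all 12 had negative changes, with a median of -2.33. All 12 were lower at an unadjusted edgeR p under 0.05, against 6.62% of all genes, and edgeR called 0 after adjustment. The part of these 12 genes in the results below was not tested beyond the fits given with them. Of 6 adipocyte genes, 5 were close to 0, Adipoq having 3 counts over all 10 libraries. The other, Fabp4, which macrophages also express, averaged 8.03 CPM with a change of -1.25 (SE 0.36, edgeR adjusted p = 0.21). In bulk libraries, fewer cells of a type and less RNA per cell cannot be told apart.

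No member of the program changed with diet at the threshold. The edgeR adjusted p of the 44 members ran from 0.326 for Ncl to 0.995 for Polr1a, and DESeq2 and limma-voom also called 0 of 44. Over all genes edgeR called 0.0418% as higher and 0.0209% as lower, DESeq2 called 1.12% of the 29042 it tested, and limma-voom called 0.0349%. At an unadjusted p under 0.05 edgeR had 4 members, Myc, Ncl, Nop14 and Eif4a1, all lower on the high-fat diet. That is 9.09% of the members, against 6.62% of all genes lower at the same p, and 0 members were higher, against 5.45% of all genes. DESeq2 had 3 members lower, 6.82% against 4.13% of its genes, and limma-voom 4, against 6.31% of its genes. The 29042 genes of DESeq2 include those of low count, 17737 having an adjusted p, so its shares are not on the same genes. On the 14337 filtered genes, edgeR with RLE size factors, another scaling, had 3 members lower, against 6.42% of genes. The direction leaned one way: 34 of 44 members, 77.3%, had a negative change, against 48.6% of all genes tested, and the median change was -0.08, against 0.01 over all genes. Members share mice and libraries, so these shares carry no test. For 0 of 44 members did the diets fail to overlap, against 2.18% of all genes.

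The changes were small and measured with fair precision. Standard errors ran from 0.07 to 0.21, and the 95% confidence interval excluded a change of 2-fold or more in either direction for all 44 members. It excluded 1.5-fold for 42, the other two being Myc and Wdr74. Omitting a high-fat mouse with high members, or a control mouse with low members, widens the difference by construction. Each mouse left out in turn moved the number of members at an unadjusted p under 0.05. It became 11 when high-fat mouse 5 was left out (25.0% of members lower, against 7.54% of all genes in that fit), 9 for control mouse 3 (20.5% against 7.86%) and 7 for control mouse 5 (15.9% against 5.56%). Leaving out high-fat mouse 2 or control mouse 4 gave 2, leaving out high-fat mouse 3, control mouse 1 or control mouse 2 gave 1, and leaving out high-fat mouse 1 or 4 gave 0, while all genes in these fits had 4.92% to 7.03% lower. With library size in the fit the median change was -0.01 and 24 members had a negative change, and with the macrophage level in the fit they were -0.15 and 32.

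**Figure D1:**
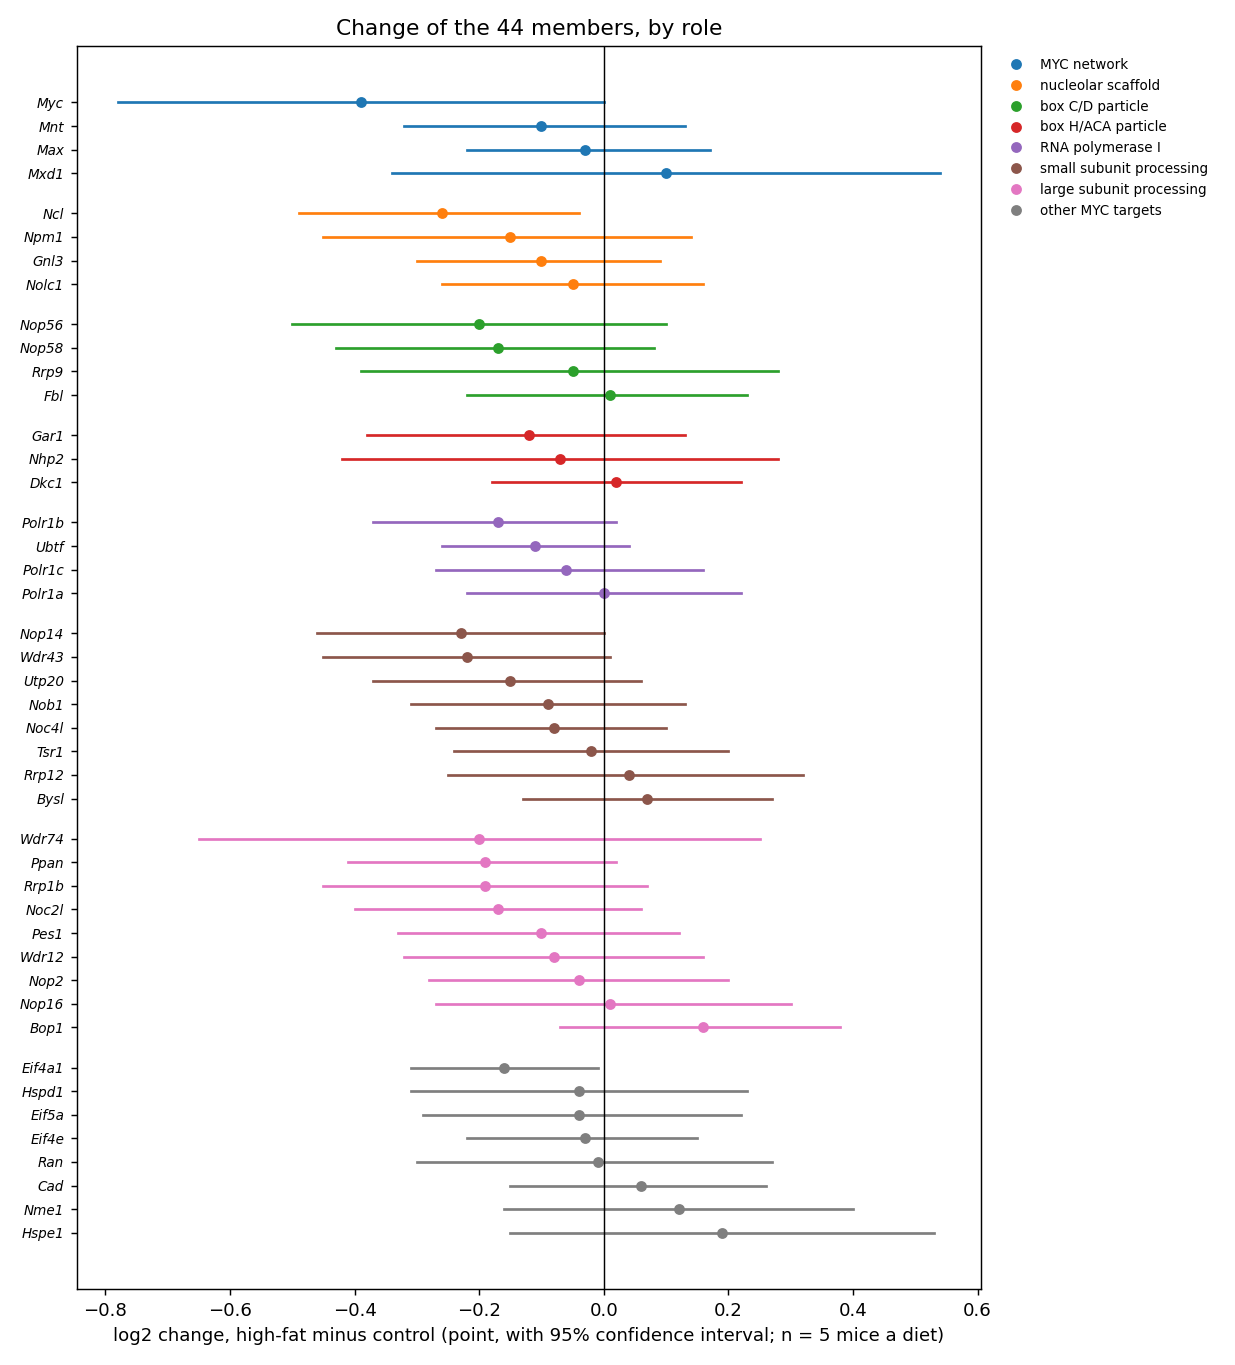
Log2 change, high-fat minus control, of each of the 44 members with its 95% confidence interval (n = 5 mice a diet), grouped by role and coloured as in the key. Most points lie a little left of 0, 34 of 44, and every interval stays inside a 2-fold change in either direction.

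The promoters of the members were looked at for the sequences that MYC and MAX bind. RefSeq windows of GRCm38.p6, from 250 bases before to 50 bases after each start, were on hand for 39 of the 44 members (56 windows), all but Myc, Npm1, Fbl, Bop1 and Rrp12. The canonical E-box CACGTG, which reads the same on both strands, was in 16 of these 56 windows, 28.6%, against 7.84% of the windows of protein-coding genes and 7.15% of all windows. The variant CACGCG, searched on both strands (as CGCGTG on the other), was in 28.6% of member windows, against 12.1% and 9.27% in the same order. Windows of a gene can overlap. By gene, CACGTG was in 33.3% of the 39 members and CACGCG in 35.9%, against 8.91% and 13.7% of protein-coding genes. The members were listed in part as MYC targets, so a larger share of them is no independent finding. Such matches describe letters and do not show binding. Of the 13 members with a CACGTG, 12 had a negative change, with a median of -0.04, and of the 26 without it 19 did, with a median of -0.09. The 19 leave out Polr1a, whose change rounds to -0.00 and which is counted as negative elsewhere here.

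The windows of the 5 members with the smallest p among those with a single window are given below, 5′ to 3′ on the strand of the gene, with both motifs in capitals. They are shown so that members with and without a motif can be set beside their changes, given further on. Ncl lies at chr1:86359406-86359705 (minus strand), Eif4a1 at chr11:69672374-69672673 (minus), Nop14 at chr5:34660099-34660398 (minus), Wdr43 at chr17:71615965-71616264 (plus) and Ppan at chr9:20887925-20888224 (plus).
Ncl: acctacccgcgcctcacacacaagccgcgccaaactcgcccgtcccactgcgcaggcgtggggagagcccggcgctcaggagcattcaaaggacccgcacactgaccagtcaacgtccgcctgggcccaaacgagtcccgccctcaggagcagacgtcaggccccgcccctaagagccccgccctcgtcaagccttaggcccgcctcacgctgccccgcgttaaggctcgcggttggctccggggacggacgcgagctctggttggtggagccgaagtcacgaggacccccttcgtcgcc
Eif4a1: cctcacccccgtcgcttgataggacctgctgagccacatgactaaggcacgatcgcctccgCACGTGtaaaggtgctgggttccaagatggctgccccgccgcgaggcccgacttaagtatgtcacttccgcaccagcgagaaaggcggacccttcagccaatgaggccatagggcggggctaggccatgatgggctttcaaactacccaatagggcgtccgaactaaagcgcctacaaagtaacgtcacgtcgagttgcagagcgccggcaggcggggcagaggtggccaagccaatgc
Nop14: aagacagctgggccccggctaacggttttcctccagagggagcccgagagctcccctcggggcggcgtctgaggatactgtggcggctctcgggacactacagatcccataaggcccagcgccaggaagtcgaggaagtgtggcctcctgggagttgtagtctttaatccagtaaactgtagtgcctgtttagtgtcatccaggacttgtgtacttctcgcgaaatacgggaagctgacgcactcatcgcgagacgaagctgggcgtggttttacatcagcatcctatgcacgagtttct
Wdr43: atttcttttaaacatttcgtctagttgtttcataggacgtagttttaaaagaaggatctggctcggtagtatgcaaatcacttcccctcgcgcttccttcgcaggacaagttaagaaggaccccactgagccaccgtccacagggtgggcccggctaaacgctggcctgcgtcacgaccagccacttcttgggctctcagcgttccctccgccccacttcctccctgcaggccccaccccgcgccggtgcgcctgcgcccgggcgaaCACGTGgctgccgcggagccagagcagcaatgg
Ppan: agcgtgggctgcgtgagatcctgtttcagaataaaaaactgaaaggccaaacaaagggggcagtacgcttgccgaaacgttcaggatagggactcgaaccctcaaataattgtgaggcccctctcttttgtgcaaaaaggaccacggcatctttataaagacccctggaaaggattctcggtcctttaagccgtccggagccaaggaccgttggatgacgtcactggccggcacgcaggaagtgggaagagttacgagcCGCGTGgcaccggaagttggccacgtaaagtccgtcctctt
The Eif4a1 window holds a CACGTG 189 bases before the start, Wdr43 has one at base 18 after it, and Ppan has the variant at base 10. Neither motif occurs in the Ncl and Nop14 windows. For Ncl, the GENCODE annotation used for the gene positions here places the start at 86359400. The RefSeq window of Ncl thus lies wholly before the GENCODE gene.

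The MYC network is the regulatory layer. Myc itself (GRCm38 chromosome 15, 61985391 to 61990374) stood at 145, 164, 152, 143 and 243 CPM in high-fat mice 1 to 5, against 266, 273, 165, 182 and 227 CPM in control mice 1 to 5. High-fat mice 1 to 4 were below every control mouse, although mouse 2 was barely so, and high-fat mouse 5 sat among the higher controls. The change was -0.39 (SE 0.18, 95% interval -0.78 to -0.00; edgeR adjusted p = 0.405), and without high-fat mouse 5 it was -0.55 (SE 0.14, edgeR adjusted p = 0.157). It was -0.59 (SE 0.16, edgeR adjusted p = 0.0978) without control mice 3 and 4, which had the most macrophage RNA and the lowest control Myc. Omitting the lowest controls widens the difference by construction. With the macrophage level in the fit the change was -0.63 (SE 0.23, edgeR adjusted p = 0.22) and with the pan-leukocyte level -0.53 (SE 0.16, edgeR adjusted p = 0.0975). Library size in the fit gave -0.33 (SE 0.25, edgeR adjusted p = 0.952). Over all genes edgeR called 1.89%, 1.67%, 3.83% and 0% in these fits, in that order, against 0.0628% with diet alone and all 10 mice. Myc also varied widely among control mice, with a coefficient of variation of 21.9%.

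MAX, the partner MYC needs to bind DNA, had 89.3, 108, 107, 100.5 and 119 CPM in high-fat mice and 100.3, 101, 126, 100.2 and 106 CPM in control mice. These ranges lay across each other, and the change was -0.03 (SE 0.09). Mxd1 and Mnt encode repressors that compete with MYC for MAX. Mxd1 was scarce, at 4.65, 5.74, 4.70, 3.61 and 2.86 CPM in high-fat mice and 2.85, 3.66, 4.37, 5.07 and 4.16 CPM in control mice, a change of 0.10 (SE 0.20). Its values overlapped over most of their range. Mnt stood at 83.5, 122, 97.5, 84.6 and 83.9 CPM in high-fat mice, against 108, 99.2, 104, 90.9 and 102 CPM in control mice. Of its high-fat values 3 lay below all controls and 1 above them (change -0.10, SE 0.10).

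Nucleolar scaffold and assembly proteins had negative changes throughout, from -0.26 to -0.05, with 1 of 4 at an unadjusted p under 0.05. Ncl (GRCm38 chromosome 1, 86344719 to 86359400) encodes nucleolin, an abundant nucleolar protein that binds the ribosomal RNA precursor. It stood at 871, 854, 799, 851 and 1148 CPM in high-fat mice and 1226, 1115, 1035, 1001 and 1051 CPM in control mice. The first 4 high-fat mice lay below every control, and high-fat mouse 5 was above 4 of the 5 controls. Its change of -0.26 (SE 0.10, edgeR adjusted p = 0.326) became -0.36 (SE 0.08, edgeR adjusted p = 0.114) without high-fat mouse 5. Changes were -0.15 (SE 0.14) for Npm1, the nucleolar chaperone nucleophosmin, -0.10 (SE 0.09) for Gnl3, the GTPase nucleostemin, and -0.05 (SE 0.10) for Nolc1, a chaperone of small nucleolar ribonucleoproteins.

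**Figure D2:**
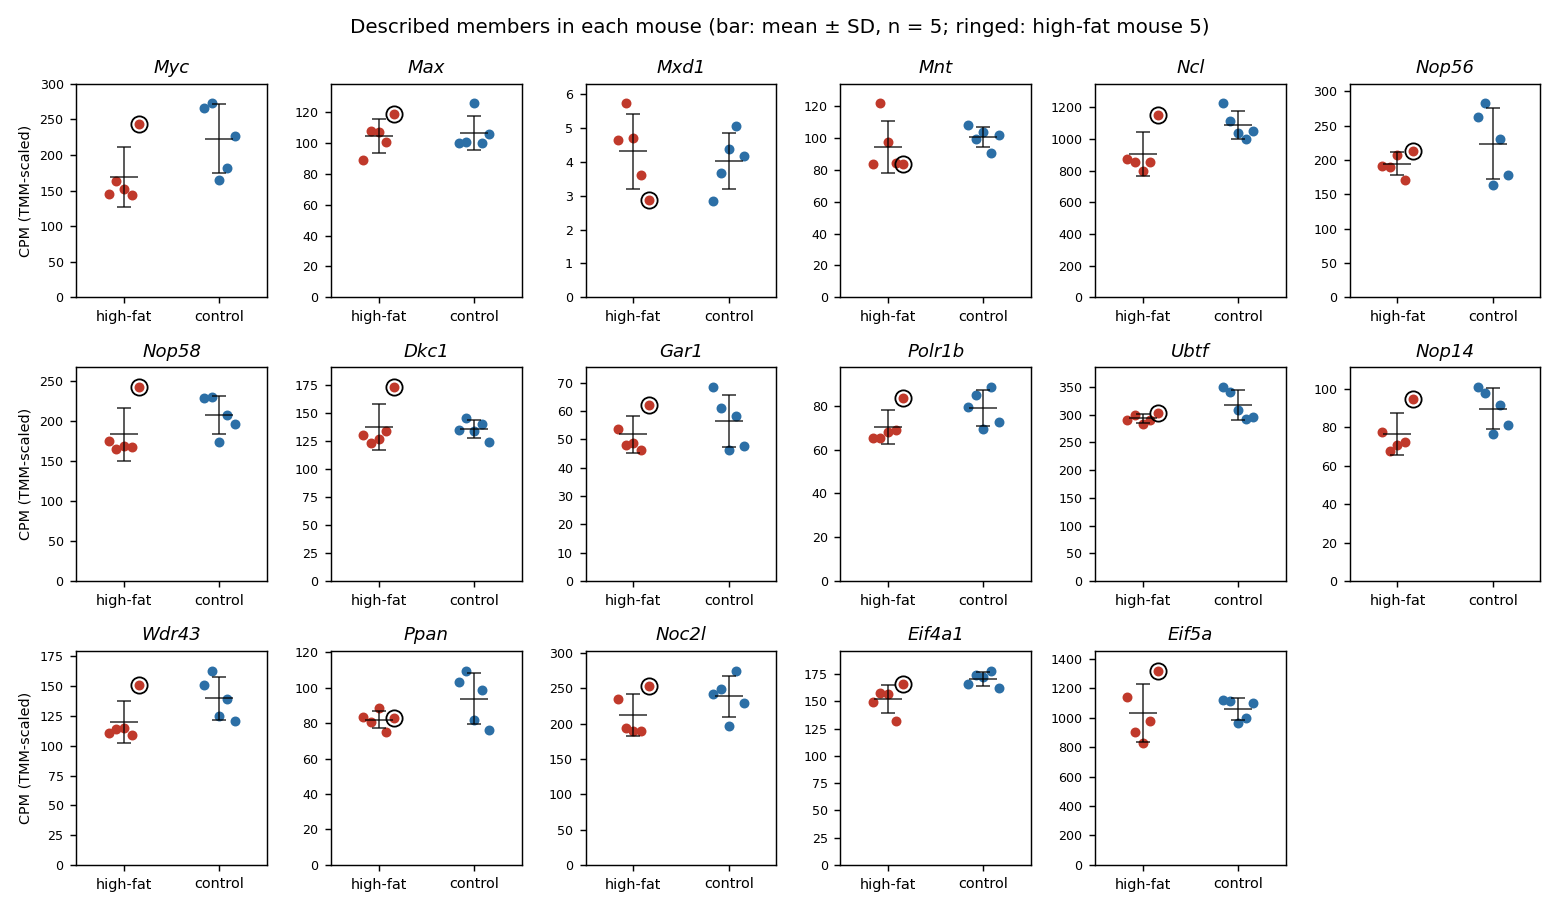
CPM of the 17 members described in full, in each mouse (dots, high-fat mice on the left of each panel in red and control mice on the right in blue), with mean ± SD (n = 5) and high-fat mouse 5 ringed. In Myc, Ncl, Polr1b, Wdr43 and Eif4a1 the other 4 high-fat mice lie below all controls, while the ringed mouse lies among or above them.

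Box C/D particles place methyl groups on ribosomal RNA. Nop56 and Nop58 are their paired core proteins. Nop56 stood at 191, 190.5, 208, 170.4 and 213 CPM in high-fat mice and at 263, 283, 164, 231 and 178 CPM in control mice. All high-fat values fell within the span of the controls, which were themselves split (change -0.20, SE 0.14). Nop58 stood at 175, 165, 169, 168 and 243 CPM in high-fat mice, against 229, 230.3, 174, 208 and 196 CPM in control mice, a change of -0.17 (SE 0.12). High-fat mouse 5 was the highest of all 10 and the other 4 were near or below the lowest control. Fbl, the methyltransferase fibrillarin, had a change of 0.01 (SE 0.10), and Rrp9, a protein of the particle that guides early cleavage of the precursor, one of -0.05 (SE 0.15).

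Box H/ACA particles convert uridines of ribosomal RNA to pseudouridine. Dkc1, their catalytic subunit dyskerin, stood at 129.7, 123, 127, 134 and 173 CPM in high-fat mice and 135, 145, 134, 139.6 and 124 CPM in control mice, a change of 0.02 (SE 0.09). Without high-fat mouse 5 its sign turned, to -0.08 (SE 0.06). Gar1, a core protein of the same particle, had 53.8, 48.0, 48.6, 46.1 and 62.1 CPM in high-fat mice and 68.5, 60.9, 46.4, 58.4 and 47.8 CPM in control mice (change -0.12, SE 0.12), ranges that overlapped nearly in full. Nhp2, another core protein, had a change of -0.07 (SE 0.16).

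RNA polymerase I genes had changes from -0.17 to -0.00. Polr1b, one of the large core subunits of the polymerase, stood at 65.3, 65.2, 68.0, 68.8 and 83.7 CPM in high-fat mice and at 79.6, 84.8, 69.4, 88.7 and 72.7 CPM in control mice. Here too the first 4 high-fat mice were below all controls, by little in the case of control mouse 3 (change -0.17, SE 0.09, edgeR adjusted p = 0.496). With library size in the fit the change of Polr1b was -0.02 (SE 0.11). Ubtf encodes UBF, which opens ribosomal DNA for the polymerase. Its levels of 291, 300.1, 283, 290 and 303 CPM in high-fat mice were the tightest of any member in that diet, against 349.9, 341, 309, 292 and 295 CPM in control mice (change -0.11, SE 0.07). The 2 controls highest for Ubtf, mice 1 and 2, were also highest for Myc. Polr1a, the largest subunit, had a change of -0.00 (SE 0.10), and Polr1c, shared with RNA polymerase III, one of -0.06 (SE 0.10).

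Factors that process the small subunit had 6 of 8 changes negative, and 1 at an unadjusted p under 0.05. Nop14 (GRCm38 chromosome 5, 34638536 to 34660148), needed for the early cleavages, stood at 77.4, 67.6, 70.7, 72.3 and 94.8 CPM in high-fat mice, against 101, 97.9, 76.3, 91.5 and 81.4 CPM in control mice. High-fat mice 2, 3 and 4 lay below all controls and mouse 5 above 3 of them (change -0.23, SE 0.11, edgeR adjusted p = 0.412). Wdr43, a subunit of the early processome, again had its highest high-fat value in mouse 5, at 111, 114, 115, 109 and 151 CPM in high-fat mice and 151, 163, 125, 139 and 120.4 CPM in control mice (change -0.22, SE 0.11, edgeR adjusted p = 0.454). The changes of the other 6 were -0.15 for the scaffold protein Utp20, -0.09 for Nob1, the nuclease of the last cut, -0.08 for Noc4l, -0.02 for the late assembly factor Tsr1, 0.04 for the export factor Rrp12 and 0.07 for Bysl, or bystin. Their standard errors ran from 0.09 to 0.13, so none lay beyond 2 of its standard errors.

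Large-subunit factors had 7 of 9 changes negative and none at an unadjusted p under 0.05. Ppan stood at 83.3, 80.7, 88.3, 74.8 and 83.0 CPM in high-fat mice, against 103, 109.6, 81.8, 98.7 and 76.1 CPM in control mice (change -0.19, SE 0.10, edgeR adjusted p = 0.469). It is a case in which high-fat mouse 5 was not raised. Noc2l, which travels with early large subunits, stood at 235, 194, 189, 189 and 254 CPM in high-fat mice and 242, 249.7, 197, 275 and 229 CPM in control mice (change -0.17, SE 0.11), so that 3 high-fat mice were just under the lowest control. With library size in the fit its change was -0.02 (SE 0.14). Pes1, Bop1 and Wdr12 form a single complex, yet their changes were -0.10 (SE 0.10), 0.16 (SE 0.10) and -0.08 (SE 0.11). Whether Bop1 differs from its partners was not tested. The rest were Wdr74 at -0.20 (SE 0.21), Rrp1b at -0.19 (SE 0.12), the RNA methyltransferase Nop2 at -0.04 (SE 0.11) and Nop16 at 0.01 (SE 0.13).

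MYC targets outside ribosome assembly went both ways, 5 lower and 3 higher, with a median of -0.02. Eif4a1 (GRCm38 chromosome 11, 69666936 to 69672423), the helicase of translation initiation, stood at 149, 158, 157, 132 and 166 CPM in high-fat mice and at 166, 174, 172, 178 and 162 CPM in control mice. Its controls were close together, and 4 of 5 high-fat mice lay below them (change -0.16, SE 0.07, edgeR adjusted p = 0.377). Eif5a, a translation factor and the most abundant member per length, stood at 1141, 901, 829, 980.4 and 1321 CPM in high-fat mice, against 1123, 1118, 968, 997 and 1102 CPM in control mice (change -0.04, SE 0.12). High-fat mice spanned both the lowest and the highest of its values. Positive changes were those of Hspe1 at 0.19 (SE 0.16), Nme1 at 0.12 (SE 0.13) and Cad, which starts pyrimidine synthesis, at 0.06 (SE 0.09). Hspd1, the mitochondrial chaperonin that works with Hspe1 and is transcribed from the opposite strand beside it, had a change of -0.04 (SE 0.12). Ran, the GTPase of nuclear transport, was at -0.01 (SE 0.13) and the cap-binding protein gene Eif4e at -0.03 (SE 0.09).

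Levels can be compared between genes only per length, here as CPM per kilobase of annotated exons over all 10 mice. The length joins every annotated exon of a gene, 10188 bases for Ncl and 11955 for Wdr12, against 1146 for Nhp2. Where not all of these exons are in the RNA the value comes out too low, so the order depends in part on the annotation. Limits from shared sequence, small nucleolar RNA genes within exons and alignment, given below, apply here too. Eif5a was highest at 441 ± 59.5, followed by Npm1 at 193 ± 33.6 and Nhp2 at 112 ± 21.7 (SD, n = 10 each). Next were Ncl, at 97.7 ± 14.3, and Ran, at 94.5 ± 14.9. The SD is over mice that all genes share, and whether these genes differ within mice was not tested. Myc, at 72.2 ± 18.8, was above Max, at 29.4 ± 2.91. The lowest were Mxd1 at 0.589 ± 0.132, Wdr74 at 1.52 ± 0.354, Wdr12 at 2.10 ± 0.274 and Fbl at 3.62 ± 0.362. Fbl was thus far below Nop56, at 51.0 ± 9.61, although both proteins belong to the same particle, and Fbl was singled out after its values were seen.

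The members differed between mice more plainly than between diets. High-fat mouse 5 had the highest value of all 10 mice for 21 of 44 members, 47.7%, against 17.7% of all genes tested, and the lowest for 0 of 44. High-fat mice 2, 3 and 4 were each lowest for 9 members, 20.5%, against 9.1%, 14.6% and 4.25% of all genes in that order of mice. Over the 44 members the median deviation from the 10-mouse mean was 0.23 in high-fat mouse 5, and -0.05, -0.16, -0.13 and -0.15 in high-fat mice 1 to 4. In control mice 1 to 5 it was 0.11, 0.16, -0.10, 0.09 and -0.04. Deviations are on the log2 scale with 0.5 added to each CPM. Control mice 1, 2 and 4 thus stood above the mean and control mice 3 and 5 below it, so that mice of both diets lay on either side.

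**Figure D3:**
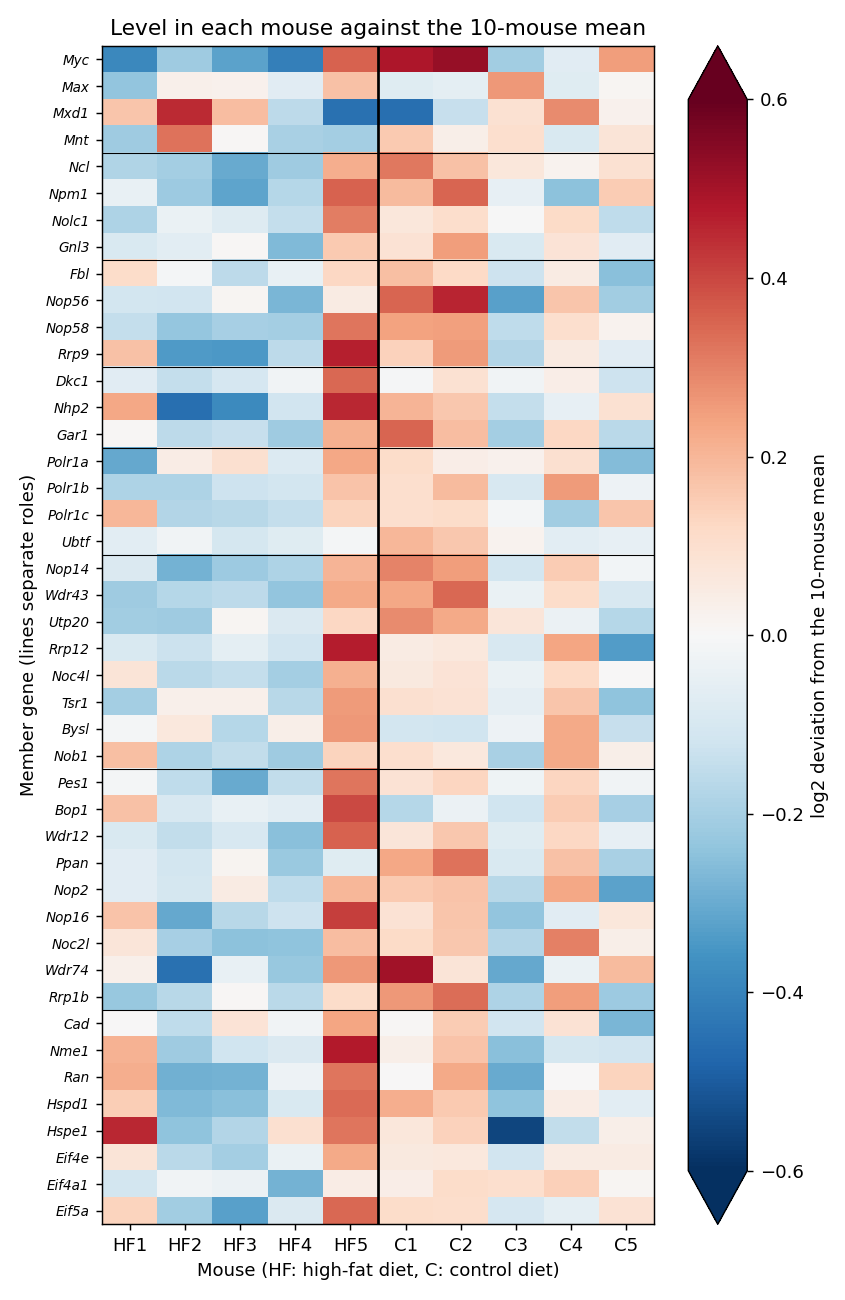
Log2 deviation of each member (rows, grouped by role) from its mean over 10 mice, in high-fat mice (HF1 to HF5) and control mice (C1 to C5), with 0.5 added to each CPM; red is above the mean and blue below. The columns of HF5 and C2 are each red for 40 of 44 members and that of C1 for 39. HF2, HF3, HF4 and C3 are red for 6, 12, 2 and 8.

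Without high-fat mouse 5 the lean was stronger but still under the threshold. In that fit 38 of 44 members had negative changes, against 49.0% of all genes, the median was -0.14, and 11 members were lower at an unadjusted p under 0.05, 25.0% against 7.54% of all genes. EdgeR called 0 of 44 after adjustment, the smallest adjusted p being 0.114 for Ncl. Leaving this mouse out because its members are high widens the difference by construction, so the fit is no independent evidence. In 6 members, Myc, Ncl, Polr1b, Wdr43, Wdr12 and Eif4a1, the 4 other high-fat mice lay below all 5 controls, against 3.79% of all genes with 4 of 5 high-fat mice below all controls.

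Cell cycle genes singled out the same mouse. High-fat mouse 5 was highest for 13 of 16 of them, 81.2%, against 17.7% of all genes, and its median deviation on that list was 0.24. With diet, 7 of the 16 cell cycle genes had positive and 9 negative changes (median -0.01), and edgeR called 0, with 0 at an unadjusted p under 0.05. The fibroblast genes Pdgfra, Dcn, Lum, Col1a1, Col3a1, Fap and Dpt had their lowest sum of the series in high-fat mouse 5, 6219.6 CPM, against 8555 to 12364 CPM in the other high-fat mice and 6904 to 11848 CPM in control mice. Most of this sum is Col3a1. By gene, high-fat mouse 5 was lowest for 4 of the 7, 57.1%, against 17.0% of all genes, and above the 10-mouse mean for 0. Its macrophage sum, at 62.0 CPM, was within the range of the other high-fat mice. The part of proliferation or of these other transcripts in the members' levels was not tested.

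**Figure D4:**
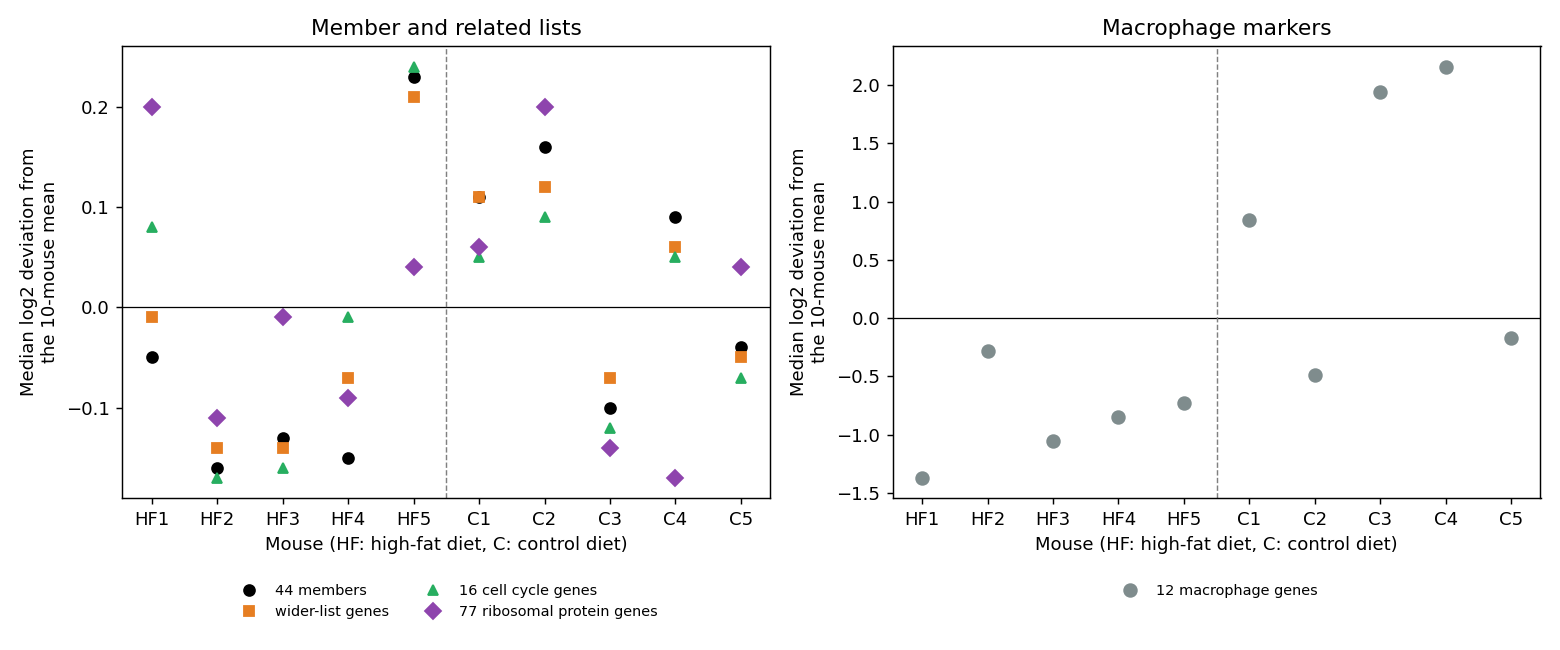
Median log2 deviation from the 10-mouse mean in each high-fat mouse (HF1 to HF5) and control mouse (C1 to C5), on the left for the members, the wider lists, cell cycle genes and ribosomal protein genes, and on the right for macrophage markers on a wider scale. Members, wider lists and cell cycle genes are all highest in HF5, at 0.23, 0.21 and 0.24, whereas macrophage markers are highest in C3 and C4.

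A wider set of 152 genes of the same pathways, of which 149 were tested, leaned the same way in sign as a whole, though not in every list of it. Of these, 44 had positive and 105 negative changes, 70.5% negative against 48.6% of all genes, with a median of -0.05. EdgeR called 0, with 3 higher and 8 lower at an unadjusted p under 0.05. Those 8 are 5.37% of the set, against 6.62% of all genes, and the 3 are 2.01%, against 5.45%, so the lean was one of sign and not of small p. High-fat mouse 5 was highest for 80 of the 149, 53.7%, against 17.7% of all genes. Small-subunit factors had 28 of 41 negative (median -0.06) and large-subunit factors 33 of 42 (median -0.05). Other MYC targets had 25 of 30 negative (median -0.06), RNA polymerase I genes 9 of 17 (median -0.02), small nucleolar particle genes 5 of 9 (median -0.00), and other members of the MYC network 5 of 10 (median 0.02). The RNA polymerase I list includes Polr2e, Polr2f, Polr2h, Polr2k and Polr2l, subunits shared with other RNA polymerases.

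Among these wider genes, Eif4ebp1, which encodes an inhibitor of cap-dependent translation, averaged 263 ± 46.1 CPM in high-fat mice and 350.4 ± 65.4 CPM in control mice (SD, n = 5 each; change -0.42, SE 0.14, edgeR adjusted p = 0.271). The cyclin gene Ccnd2 averaged 204 ± 32.6 CPM in high-fat mice and 247 ± 17.0 CPM in control mice (change -0.28, SE 0.10). Mxi1, a MAX-binding repressor, averaged 112 ± 14.7 CPM in high-fat mice and 152 ± 44.6 CPM in control mice, and its controls 3 and 4 were low, at 111 and 97.1 CPM. Further genes with an unadjusted p under 0.05 were Utp4, Urb2, Rrs1, Naf1 and Znhit6, with changes of -0.25 to -0.20, and Rrp36, Nop10 and Znrd1, with changes of 0.16 to 0.24. All missed the threshold after adjustment.

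Ribosomal protein genes, the protein part of the product, showed another order of mice. Of 77 tested, 43 had positive and 34 negative changes with a median of 0.01, and edgeR called 0, with 0 at an unadjusted p under 0.05. High-fat mouse 1 was highest for 26 of the 77, or 33.8%, against 1584 of all 14337 genes. High-fat mouse 3 and control mouse 2 were each highest for 18, or 23.4%, against 17.8% of all genes for high-fat mouse 3 and 8.91% for control mouse 2. High-fat mouse 5 was highest for 1. Many ribosomal protein genes have near-identical pseudogenes, so their counts are less certain.

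Counts of some members are also less certain because their sequence is shared. Of windows of 50 bases along the longest transcript, 44.8% were found exactly in transcripts of other genes, on either strand, for Hspd1, 40.9% for Npm1, 33.3% for Eif4a1 and 31.1% for Tsr1. No source used here states the strand setting of the counting. Exons of 17 members overlapped a gene on the opposite strand, most of all Tsr1, with 32.3% of its exon bases under Srr, and Noc2l, with 20.9% under Samd11. Annotated small nucleolar RNA genes lay within exons of 6 members, Ncl, Gnl3, Nop56, Nop58, Ppan and Eif4a1.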

How the data were processed

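Per the labels, 1 library was made from polyadenylated RNA of each tumor, using RNeasy columns and NEBNext Ultra reagents. The authors deposited whole-number read counts per gene, not normalized. Tools named in the submitters' processing notes, without their tasks, are DESeq2 1.24.0, BWA 0.7.12, cutadapt 1.15 and FastQC 0.11.5, and the named builds are mm10 and GRCm38. No source used here states how reads were assigned to genes, with which annotation or strand. BWA aligns without splicing, so if it was the aligner, junction reads may be undercounted and levels between genes affected.

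Of 53379 identifiers, 53274 matched GENCODE M21 (GRCm38) with the version suffix ignored. Testing used edgeR 4.0.16 under R 4.3.3 (filterByExpr, TMM, robust quasi-likelihood, diet alone in the model, two-sided, Benjamini-Hochberg over all 14337 genes, threshold 0.05), and the code was tested on simulated data. Standard errors are the absolute change over the square root of F. Alternatives used DESeq2 1.42.0, limma 3.58.1, other settings and left-out mice. A count of 3, the limit a count of 0 allows, was 0.158 to 0.183 CPM and covers counting error only. The lowest count of any member in a library was 32. No pair of the 45 library pairs agreed within sampling noise (lowest chi-square per degree of freedom 8.36). The labels give no batch. Mice are separate animals bearing the same line. The members and lists were chosen with earlier results of these data known. Described in full are the MYC network, members with an unadjusted p under 0.05, and in each role the members with the smallest p and the highest mean CPM. Of each wider list at most 3 genes with an unadjusted p under 0.05 are named.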

Additional observations from a re-analysis of the deposited data

Results flagged for a closer look

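Among the 88 groups formed by 44 members and 2 diets, 13 held a mouse far from the other 4, its gap to the nearest being more than 0.71 of the whole range, where chance would give about 4.4. High-fat mouse 5 was that mouse in 9 of the 13, each time as the highest. The gap was 0.792 of the range for Myc, 0.795 for Ncl, 0.738 for Nolc1, 0.867 for Nop58, 0.781 for Dkc1, 0.808 for Polr1b, 0.856 for Wdr43, 0.902 for Rrp12 and 0.774 for Wdr12. For Rrp12 this mouse had 67.6 CPM and the other high-fat mice 44.5 to 46.8 CPM. In control mice, mouse 3 was highest for Max (0.761) and lowest for Eif4e (0.918), mouse 5 lowest for Polr1a (0.747) and mouse 4 highest for Bysl (0.731). The members share mice, so the flags are not independent of each other.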

How the results depend on the processing

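The number of members called was 0 in all 19 alternative fits. The number with a negative change ran from 24, with library size in the fit, to 38, without high-fat mouse 5, and the median from -0.15 to -0.01. The number at an unadjusted p under 0.05, 4 as reported, was 2 with the mouse number as a replicate block, 1 (higher) with library size, 2 with the macrophage level, and 0 to 11 without single mice. Over all genes edgeR called 9. With DESeq2, which also replaced the low-count filter by its own (29042 genes tested, 17737 with an adjusted p), it was 326, with limma-voom 5, with no filter 53, with the replicate block 16, with library size 0 (817 at an unadjusted p under 0.05), with macrophage genes in the fit 239, with pan-leukocyte genes 549, without control mice 3 and 4 276, and 1 to 27 without single mice. The mouse numbers are only numbers: same-numbered mice correlated at -0.36 to 0.333 in their deviations, and 1 of 5 high-fat mice matched its own number best.

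Of 323 values of the 17 described members under an alternative, 12 turned sign and none was called. Max was 0.09 with the macrophage level in the fit, 0.02 when pan-leukocyte genes stood there instead, and 0.03 when control mice 3 and 4 were both omitted. Omitting single mice gave Max 0.04 (control 3) and 0.03 (high-fat 1). On omitting single mice Mxd1 ran from -0.02 (high-fat 2) to 0.22 (high-fat 5), with -0.0031 for control 1. Dkc1 ran from -0.08 (high-fat 5) to 0.06 (high-fat 2), with -0.01 for control 5, and was -0.01 with pan-leukocyte genes. Eif5a ran from -0.14 (high-fat 5) to 0.03 (high-fat 3), with 0.01 for high-fat 2. With library size in the fit the described members also moved nearer 0 by over 1.5 times for Nop56 (-0.09), Nop58 (-0.08), Polr1b (-0.02), Wdr43 (-0.11), Noc2l (-0.02) and Eif5a (-0.01). In the same fit Mxd1 (0.25), Mnt (-0.16), Dkc1 (0.11), Max (-0.06), Ubtf (-0.14) and Ncl (-0.27) moved away from 0. With the macrophage level Nop56 was -0.34, Nop58 -0.26 and Eif5a -0.16. The cause was not tested. Diet and library size move together, so their parts cannot be told apart.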
